A study of Rattus norvegicus with 36 samples.

Results

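The comparison described here sets the muscles that turn the eyeball, the extraocular muscles (EOM), against leg muscle in rats at postnatal day 28. It rests on 6 of the 36 arrays of the series, chosen by their labels: 3 arrays of EOM at day 28 and 3 arrays of a leg sample of gastrocnemius and soleus at day 28. Total RNA was hybridised to Affymetrix RG-U34A arrays, and both muscles were also sampled at days 0, 7, 14, 21 and 45 with 3 arrays each. The labels name no strain, sex, genotype or treatment. Whether the 3 arrays of a group stand for 3 animals is not stated, nor how gastrocnemius and soleus were combined, so the p-values cover the spread between arrays, which may be technical.

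Skeletal muscle fibres take their speed from the myosin heavy chain they carry. In limb muscles the embryonic and neonatal isoforms are replaced after birth by adult fast and slow isoforms. Extraocular muscles are known to keep developmental isoforms into adulthood, to add an isoform of their own encoded by Myh13, and to be densely innervated.

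The arrays were scaled to a common level before deposit, with trimmed means of 1501 to 1502 intensity units and medians of 428.3 to 536.6. On single arrays 17.4% to 23.3% of readings did not exceed 100, the floor to which lower readings were raised before the log2 was taken. Across the probe sets, arrays of the same muscle correlated at 0.928 to 0.943 (EOM) and 0.915 to 0.941 (leg), against 0.861 to 0.919 between muscles. The number of arrays limits the precision. Differences are EOM minus leg on the log2 scale, followed by their standard error, whose variance is pooled over the 12 groups of 3 arrays, and adjusted p-values come from limma over 6672 probe sets.

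At day 28, 789 of the 6672 probe sets tested passed an adjusted p of 0.05, which is 11.8%. Of these, 510 were higher in EOM (7.64%) and 279 were lower (4.18%), and 496 differed by 2-fold or more. Counted by gene, with each gene represented by its brightest probe set, 466 of 3889 genes passed: 300 were higher in EOM (7.71%) and 166 were lower (4.27%). Another probe set was tested for 40 of the 103 named genes. Of these 63 probe sets, 57 had the sign of the brightest one, and 32, from 23 genes, fell on the other side of the test or had the opposite sign. The 3 arrays of EOM lay wholly above or below the 3 of leg for 1100 genes (28.3%). Without EOM replicate 2, the count of probe sets fell to 515, with 298 higher and 217 lower. Scaling every array to 1 common median gave 384 higher and 317 lower probe sets, so the share of calls that were higher was 54.8%, against 64.6% with the deposited scaling.

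**Figure D1:**
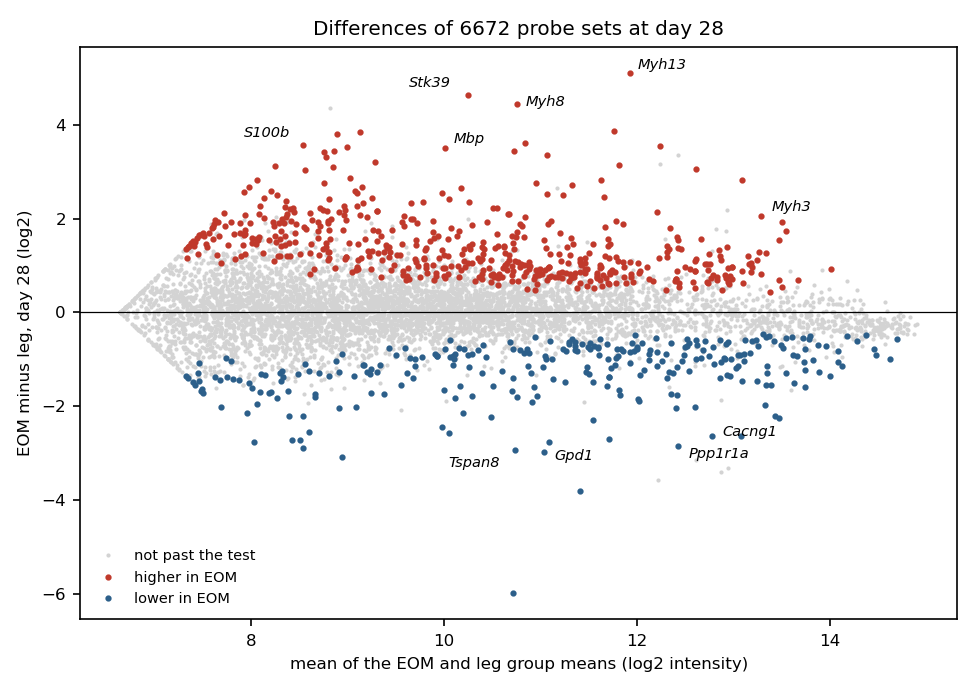
EOM minus leg at day 28 (y axis, log2) against the mean of the group means (x axis, log2 intensity) for the 6672 probe sets tested, with each point 1 probe set, red where higher in EOM, blue where lower and grey where not past the test. The labelled probe sets of Myh13, Stk39 and Myh8 lie near the top, at 5.10, 4.63 and 4.44. The lowest point, at -5.98, is a probe set that is annotated to several genes.

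Of the myosin heavy chain genes, Myh13, Myh8 and Myh3 were higher in EOM. Myh13, the extraocular myosin, read 23609.7, 18655 and 26747 on the EOM arrays, against 631.0, 509.6 and 909.9 on the leg arrays. Every EOM array was far above every leg array, and 2 of the 6 values lay in the brightest 1% of the data set. The difference was 5.10 ± 0.60 (34.3-fold, adjusted p = 5.15e-07). Myh8, the neonatal or perinatal myosin, read 7606, 8975 and 7687 on the EOM arrays, against 291.4, 297.8 and 597.4 on the leg arrays. The groups did not overlap, and the difference was 4.44 ± 0.29 (21.6-fold, adjusted p = 5.23e-12). Myh3, the embryonic myosin, read 23042, 13984 and 26571 on the EOM arrays, against 4867, 5888 and 4095 on the leg arrays, which also did not overlap, with a difference of 2.06 ± 0.39 (4.18-fold, adjusted p = 0.000438). Of its 4 other probe sets, 2 also passed, with larger differences of 3.13 ± 0.33 (adjusted p = 1.05e-07) and 2.82 ± 0.27 (adjusted p = 1.83e-08). The other two did not pass: one differed by 1.09 ± 0.67, and the other by -3.56 ± 1.63, with 1880.0, 2.5 and 14057 on the EOM arrays, against 17594, 16810.4 and 14709 on the leg arrays.

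Myh13, Myh8 and Myh3 lie in a single cluster of myosin genes on rat chromosome 10, where the order in GRCr8 is Myh3, Myh2, Myh1, Myh4, Myh8 and Myh13. Their RefSeq promoter windows (GRCr8, 250 bases before to 50 after the annotated start, all on the plus strand) are shown because these were the genes of the cluster that were higher in EOM, at chr10:52511523-52511822, chr10:52462259-52462558 and chr10:52268935-52269234. Capitals mark CAGCTG, an E-box that reads the same on both strands. It begins 134 bases before the start of Myh13 and does not occur in the windows of Myh8 and Myh3. CAGCTG also begins 81 bases before the start of Myh4, a gene of the cluster that did not pass the test.

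Myh13: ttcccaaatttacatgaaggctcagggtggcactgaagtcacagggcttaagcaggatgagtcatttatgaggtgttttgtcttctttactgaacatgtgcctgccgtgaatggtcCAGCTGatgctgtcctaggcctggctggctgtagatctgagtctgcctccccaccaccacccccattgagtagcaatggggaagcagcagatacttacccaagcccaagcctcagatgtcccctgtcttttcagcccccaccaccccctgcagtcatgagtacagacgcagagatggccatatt

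Myh8: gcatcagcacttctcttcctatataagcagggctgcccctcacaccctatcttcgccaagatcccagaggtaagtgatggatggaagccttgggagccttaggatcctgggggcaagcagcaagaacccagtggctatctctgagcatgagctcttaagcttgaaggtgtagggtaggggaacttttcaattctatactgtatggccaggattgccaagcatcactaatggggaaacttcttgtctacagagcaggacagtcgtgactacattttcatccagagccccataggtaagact

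Myh3: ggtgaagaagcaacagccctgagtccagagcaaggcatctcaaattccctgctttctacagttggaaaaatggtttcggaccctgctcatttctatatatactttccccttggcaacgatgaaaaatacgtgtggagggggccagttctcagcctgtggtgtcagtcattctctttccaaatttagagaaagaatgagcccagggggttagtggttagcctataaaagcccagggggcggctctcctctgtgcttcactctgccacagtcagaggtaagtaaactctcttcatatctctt

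The other genes of the cluster did not pass the test. Myh2, the fast oxidative myosin, read 20368, 18676 and 18782 on the EOM arrays, against 31659, 32114 and 28372 on the leg arrays, with a difference of -0.67 ± 0.27 (adjusted p = 0.118). All 3 leg arrays were above the EOM arrays. Myh4, the fastest limb myosin, differed by -0.26 ± 0.37 (adjusted p = 0.738), and Myh1, the intermediate fast myosin, by 0.39 ± 0.34 (adjusted p = 0.536). These genes are close in sequence, so their probe sets may share signal, which was not tested. Myh7, the slow myosin, differed by -0.57 ± 0.21 (adjusted p = 0.0866), while a second Myh7 probe set read 6928, 7831 and 9223 on the EOM arrays, against 24102, 25294 and 21941 on the leg arrays and passed, at -1.58 ± 0.28 (adjusted p = 0.000221). A probe set annotated to Myh6, the alpha cardiac myosin, and designed for a gene family, was lower in EOM, at -2.25 ± 0.32 (adjusted p = 1.36e-05). Its 2 sister probe sets did not pass.

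**Figure D2:**
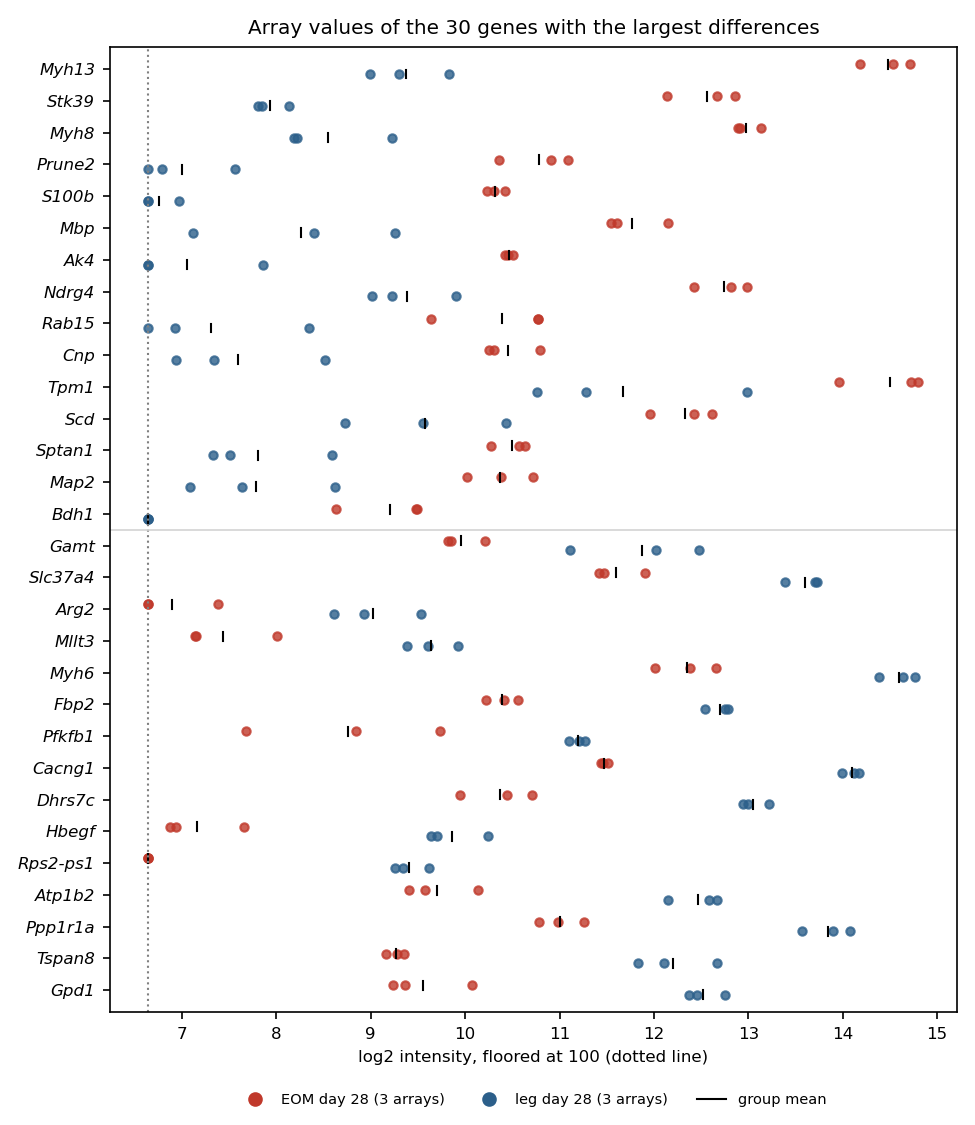
Each point is an array (x axis, log2 intensity floored at 100) for the 15 genes with the largest differences in each direction (y axis), with EOM in red above leg in blue, and black ticks for group means. For each gene the 3 EOM arrays and the 3 leg arrays do not overlap, which the choice of the genes required.

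The lists of sarcomere genes were mixed in direction. Among all genes, 7.71% were higher in EOM and 4.27% were lower, with a median difference of 0.06. Of 15 developmental sarcomere and embryonic genes tested, 4 were higher in EOM, 1 was lower and 10 did not pass, with a median of 0.17. Beside Myh8 and Myh3 these were Vim, the intermediate filament vimentin (0.87 ± 0.20), and Ckb, the brain creatine kinase (0.74 ± 0.21), and the lower gene was Acta2, smooth muscle actin (-1.29 ± 0.30). That Acta2 probe set was designed for a gene family. Another Acta2 probe set passed at -1.55 ± 0.37, and a further one, at -1.92 ± 0.65, did not (adjusted p = 0.0501). Of 14 adult fast fibre genes, Myh13 was higher, and 2 were lower: Mybpc2, the fast myosin binding protein C (-1.26 ± 0.33), and Tnni2, the fast inhibitory troponin (-0.98 ± 0.20). Of 11 slow fibre genes, 5 were lower in EOM and 1 was higher, with a median of -0.57. Without any single array 3 to 4 were lower, and 3 after quantile normalization. Car3, the carbonic anhydrase of slow fibres, read 1960.5, 1691 and 2161 on the EOM arrays, against 6526, 8224 and 3429 on the leg arrays, and was lower, at -1.56 ± 0.35 (adjusted p = 0.003). Myl3, the slow myosin light chain, Csrp3, a Z-disc protein, and Tnni1, the slow inhibitory troponin, differed by -1.36 ± 0.29, -1.29 ± 0.23 and -0.87 ± 0.26. Pln, phospholamban, which restrains the calcium pump of slow and cardiac muscle, was higher by at least 1.20 (standard error 0.36, adjusted p = 0.0273), with overlapping groups and an array of leg under the floor. Tpm1, alpha tropomyosin, was higher by 2.82 ± 0.95 at the limit of the test (adjusted p = 0.04997), and 4 further Tpm1 probe sets did not pass. These differed by 1.89 ± 0.72, 0.62 ± 0.25, 0.31 ± 1.41 and, with the opposite sign, -1.08 ± 0.50. Without 1 array the call was lost for Ckb (without EOM replicate 1 or leg replicate 3), Mybpc2 (without EOM replicate 1), Tnni1 (without EOM replicate 1 or 2 or leg replicate 1, 2 or 3), Pln (without EOM replicate 1 or 2 or leg replicate 2 or 3) and Tpm1 (without EOM replicate 1, 2 or 3 or leg replicate 1 or 2).

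Genes of sugar and glycogen metabolism differed in both directions. Gpd1, the cytosolic glycerol phosphate dehydrogenase, read 603.2, 656.6 and 1074 on the EOM arrays, against 5280.0, 6897 and 5609.6 on the leg arrays, which is 7.83-fold lower in EOM (-2.97 ± 0.65, adjusted p = 0.00231). Ppp1r1a, an inhibitor subunit of a protein phosphatase that acts on glycogen metabolism, read 1759, 2022 and 2448 on the EOM arrays, against 12181, 17215 and 15271 on the leg arrays, and was lower, at -2.84 ± 0.31 (adjusted p = 1.61e-07). A further Ppp1r1a probe set was also lower, at -3.79 ± 0.43. Pfkfb1, the bifunctional enzyme that sets the level of a fructose bisphosphate regulator, was lower, at -2.44 ± 0.49, and Fbp2, the muscle fructose bisphosphatase, at -2.30 ± 0.35. Of the 3 other Pfkfb1 probe sets 2 were also lower, and 1, at -1.05 ± 0.54, did not pass. Of the 26 glycolysis and glycogen genes tested, 6 were lower, 4 were higher and 16 did not pass, with a median of -0.12 (0.11 after quantile normalization, and also above 0 without EOM replicate 2), against 4.27% lower and 7.71% higher among all genes. Phka1, a regulatory subunit of phosphorylase kinase, was also lower, at -1.56 ± 0.45. The genes named in this paragraph were all lower, while the largest difference upward on the list was 1.88. Leaving out 1 array ended the call for Phka1 (without EOM replicate 1 or 2 or leg replicate 2 or 3).

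Other enzymes of fuel and creatine metabolism differed as well. Slc37a4, the glucose phosphate transporter of the endoplasmic reticulum, read 2740.0, 2829 and 3821 on the EOM arrays, against 10699, 13311 and 13520.5 on the leg arrays, and was lower, at -2.01 ± 0.25 (adjusted p = 1.79e-06). Gamt, the last enzyme of creatine synthesis, was lower, at -1.92 ± 0.30, and Arg2, the mitochondrial arginase, at -2.13 ± 0.50 (adjusted p = 0.00375), a lower bound in size because 2 of the 3 EOM arrays lay under the floor. Bdh1, an enzyme of ketone body use, read 715.2, 721.0 and 397.4 on the EOM arrays, against 36.8, 70.1 and 42.8 on the leg arrays. All leg arrays were under the floor, so the EOM level was higher by a factor of at least 5.90 (adjusted p = 0.000296). Ak4, a mitochondrial adenylate kinase, read 1400.4, 1376 and 1451 on the EOM arrays, against 98.9, 231.8 and 67.4 on the leg arrays, and its EOM level was above leg by a factor of at least 10.6 (adjusted p = 3.61e-06), with 2 leg arrays at the floor. Of 40 genes of oxidative phosphorylation and the citrate cycle, 1 passed, the adenine nucleotide carrier Slc25a5 (0.91 ± 0.23), and the median was -0.17 (0.02 after quantile normalization). Of 31 genes of fatty acid use, 2 were higher, a share below the 7.71% of all genes that were higher. They were the fatty acid transporter Cd36 (1.22 ± 0.36) and the beta-oxidation enzyme Ech1 (1.11 ± 0.20). The list median was 0.04. It turned to -0.05 under scaling to a common median, where 2 genes were lower, and was also below 0 without EOM replicate 2. A second Cd36 probe set, at 0.91 ± 0.42, did not pass (adjusted p = 0.171). The call did not hold without 1 array for Slc25a5 (without leg replicate 1) and Cd36 (without EOM replicate 1 or 2 or leg replicate 1).

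Genes of calcium release and of membrane excitability differed in both directions. Cacng1, the gamma subunit of the muscle voltage sensor, read 2812, 2925 and 2779 on the EOM arrays, against 16256, 18443 and 17807 on the leg arrays. The groups were far apart, with a difference of -2.62 ± 0.29 (6.16-fold lower in EOM, adjusted p = 2.86e-07). Cacna1s, the pore subunit of the same channel, was lower, at -1.33 ± 0.26, although its second probe set, at -1.58 ± 0.76, did not pass (adjusted p = 0.197). Dhrs7c, a dehydrogenase of the sarcoplasmic reticulum, read 987.4, 1667 and 1394 on the EOM arrays, against 9531, 7847 and 8198 on the leg arrays, with a difference of -2.69 ± 0.40 (adjusted p = 2.05e-05). The scaffold protein Homer2 was lower, at -1.77 ± 0.34. Of the 30 calcium genes tested 6 were lower and 3 were higher, against 4.27% lower and 7.71% higher among all genes. The median was 0.05 (-0.03 under scaling to a common median). The higher ones were Pln and the calcium-binding proteins S100a1 and S100b, of which S100b is also a Schwann cell marker. Of 20 genes of the sodium pump and ion channels, 3 were higher and 3 were lower, and 1 to 2 were called in each direction when single arrays were left out. Atp1b2, a beta subunit of the sodium pump, read 675.5, 1122 and 763.0 on the EOM arrays, against 6515, 4524 and 6142 on the leg arrays, and was lower, at -2.76 ± 0.41 (adjusted p = 2.33e-05), while 2 dimmer probe sets of the gene did not pass. Atp1b1, the other beta subunit on the list that passed, was higher by 0.92 ± 0.30 (adjusted p = 0.0442) on its brightest probe set, and 2 dimmer Atp1b1 probe sets were higher by 3.06 ± 0.29 (adjusted p = 1.83e-08) and 3.44 ± 0.66 (adjusted p = 0.000548). The potassium channel genes Kcnj12 and Kcnj11 differed by -1.13 ± 0.35 and -0.91 ± 0.26. Calls that ended without 1 array were those for Pln (without EOM replicate 1 or 2 or leg replicate 2 or 3), Atp1b1 (without EOM replicate 1 or 3 or leg replicate 1, 2 or 3), Kcnj12 (without EOM replicate 1, 2 or 3 or leg replicate 1 or 3) and Kcnj11 (without EOM replicate 3 or leg replicate 2).

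Stk39, a kinase that controls chloride cotransporters, was on the same list and gave the second largest difference among named genes. It read 6524, 7437 and 4517 on the EOM arrays, against 279.9, 230.7 and 223.7 on the leg arrays, with a difference of 4.63 ± 0.52 (24.8-fold, adjusted p = 2.67e-07). Of its 2 other probe sets, one was also higher, by 2.12 ± 0.58 (adjusted p = 0.0138), with 1 leg array under the floor. The other read 854.5, 839.7 and 713.2 on the EOM arrays, against 980.3, 1043 and 874.7 on the leg arrays, and did not pass, at -0.27 ± 0.25 (adjusted p = 0.573).

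Genes of the neuromuscular junction that passed the test were higher in EOM. Of 16 genes tested 7 were higher, none was lower and 9 did not pass, against 7.71% higher and 4.27% lower among all genes. The median was 0.72 against 0.06 for all genes. At an unadjusted p under 0.05 limma gave 9 higher and 0 lower. Chrne, the adult epsilon subunit of the acetylcholine receptor, read 3571, 4826 and 5012 on the EOM arrays, against 1425, 1429.5 and 1542 on the leg arrays, with a difference of 1.59 ± 0.24 (3.02-fold, adjusted p = 2.52e-05). The delta subunit Chrnd read 1926, 2173 and 2162 on the EOM arrays, against 1219.5, 689.7 and 805.2 on the leg arrays, with a difference of 1.25 ± 0.18 (adjusted p = 1.66e-05). Chrna1 and Chrnb1, the alpha and beta subunits, were higher by 0.87 ± 0.18 and 0.82 ± 0.21. Chrng, the gamma subunit of the fetal receptor, read 2342, 2362 and 2008 on the EOM arrays, against 2509.7, 2457 and 1883 on the leg arrays, which overlap, and did not pass, at -0.02 ± 0.17 (adjusted p = 0.968). Prkar1a, a regulatory subunit of protein kinase A, was higher by 1.21 ± 0.17, and Agrn, which encodes the synapse organiser agrin, by 0.91 ± 0.19. In bulk RNA, more fibre ends or synapses and more RNA per synapse cannot be told apart, and likewise fewer cells of a type and less RNA per cell. With 1 array left out the call was lost for Chrnb1 (without EOM replicate 1 or 2).

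The promoter window of Chrne on the minus strand of chr10:55834105-55834404 (RefSeq, GRCr8) is shown because it was the receptor gene with the largest difference. Capitals mark CAGCTG, which begins 116 bases before the start, and a match to a MEF2-like pattern (CTA and TAG separated by any 4 bases), 65 bases before it.

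Chrne: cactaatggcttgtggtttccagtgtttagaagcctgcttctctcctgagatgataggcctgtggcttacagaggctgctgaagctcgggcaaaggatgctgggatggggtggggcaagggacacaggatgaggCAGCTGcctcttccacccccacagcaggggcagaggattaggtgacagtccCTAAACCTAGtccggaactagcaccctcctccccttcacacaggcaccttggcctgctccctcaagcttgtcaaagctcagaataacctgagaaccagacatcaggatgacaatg

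Over all 33469 promoter windows, 15.1% held CAGCTG and 3.84% held the MEF2-like pattern, and over the 3478 windows of the genes tested the shares were 17.1% and 2.73%. For the genes higher in EOM at day 28 the shares were 18.1% and 4.23% of 260 windows, and for the genes lower in EOM 16.7% and 2.78% of 144. AAGGTCA, a nuclear receptor element searched on both strands, was in 4.61% of all windows, 2.85% of those of the genes tested, 3.46% of those of the higher genes and 2.08% of those of the lower genes. These matches are descriptions of the letters and not of binding.

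Markers of Schwann cells, myelin and axons that passed the test were higher in EOM. Of 18 tested 9 were higher and none was lower, against 7.71% and 4.27% of all genes, with a median of 1.25. At an unadjusted p under 0.05 limma gave 11 higher and 1 lower. Mbp, the myelin basic protein, read 4555, 3132 and 2982 on the EOM arrays, against 138.9, 611.9 and 337.0 on the leg arrays, with a difference of 3.51 ± 0.49 (11.4-fold, adjusted p = 9.25e-06). Cnp, an enzyme of myelin, read 1221, 1776 and 1265 on the EOM arrays, against 122.3, 366.4 and 162.2 on the leg arrays, with a difference of 2.85 ± 0.43 (adjusted p = 2.52e-05). S100b, a calcium-binding protein of Schwann cells and other glia, read 1368, 1264 and 1202 on the EOM arrays, against 125.1, 88.2 and 56.7 on the leg arrays. With 2 leg arrays at the floor, it was at least 11.8-fold higher (adjusted p = 0.00627). Mal, a myelin lipid protein, and Apod, a lipid carrier of Schwann cells, were higher by 2.36 ± 0.26 and 2.55 ± 0.38. The summed signal of the 18 markers was 42212 to 53035 on the EOM arrays and 19591 to 21624 on the leg arrays. No marker lay at the floor on all leg arrays, and 1 did on all EOM arrays. Nerve markers and junction genes that passed were thus both higher in EOM, and the part of nerve in the junction differences was not tested.

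The 15 largest differences higher in EOM also included genes that stand on no list used here. Ndrg4, a gene expressed in brain and heart, read 8102, 7220.5 and 5513 on the EOM arrays, against 598.3, 958.2 and 516.6 on the leg arrays, with a difference of 3.36 ± 0.39 (10.3-fold, adjusted p = 4.18e-07). Prune2, which is expressed in nervous tissue, was higher by at least 3.79 on the log2 scale (standard error 0.48), a lower bound because 1 leg array lay under the floor. Rab15, a small GTPase of endosomes, was likewise higher by at least 3.09 (standard error 0.58), with 1 leg array under the floor. Map2, a microtubule protein of neurons, was higher by 2.59 ± 0.40, and the non-erythroid alpha spectrin Sptan1 by 2.68 ± 0.36.

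Among the other genes lower in EOM, Tspan8, a tetraspanin on the gland marker list, read 573.2, 620.3 and 655.4 on the EOM arrays, against 4399, 3641 and 6505 on the leg arrays, with a difference of -2.93 ± 0.40 (adjusted p = 5.54e-06). Hbegf, a growth factor of the EGF family, read 122.6, 201.3 and 117.1 on the EOM arrays, against 1213, 829.7 and 799.5 on the leg arrays, and was lower, at -2.71 ± 0.46 (adjusted p = 0.000137). Mllt3, a reader of chromatin acylation, was lower, at -2.21 ± 0.35. The probe set annotated to Rps2-ps1, a pseudogene close in sequence to the gene of ribosomal protein S2, was under the floor on all EOM arrays and at least 6.78-fold lower there (adjusted p = 0.000657).

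**Figure D3:**
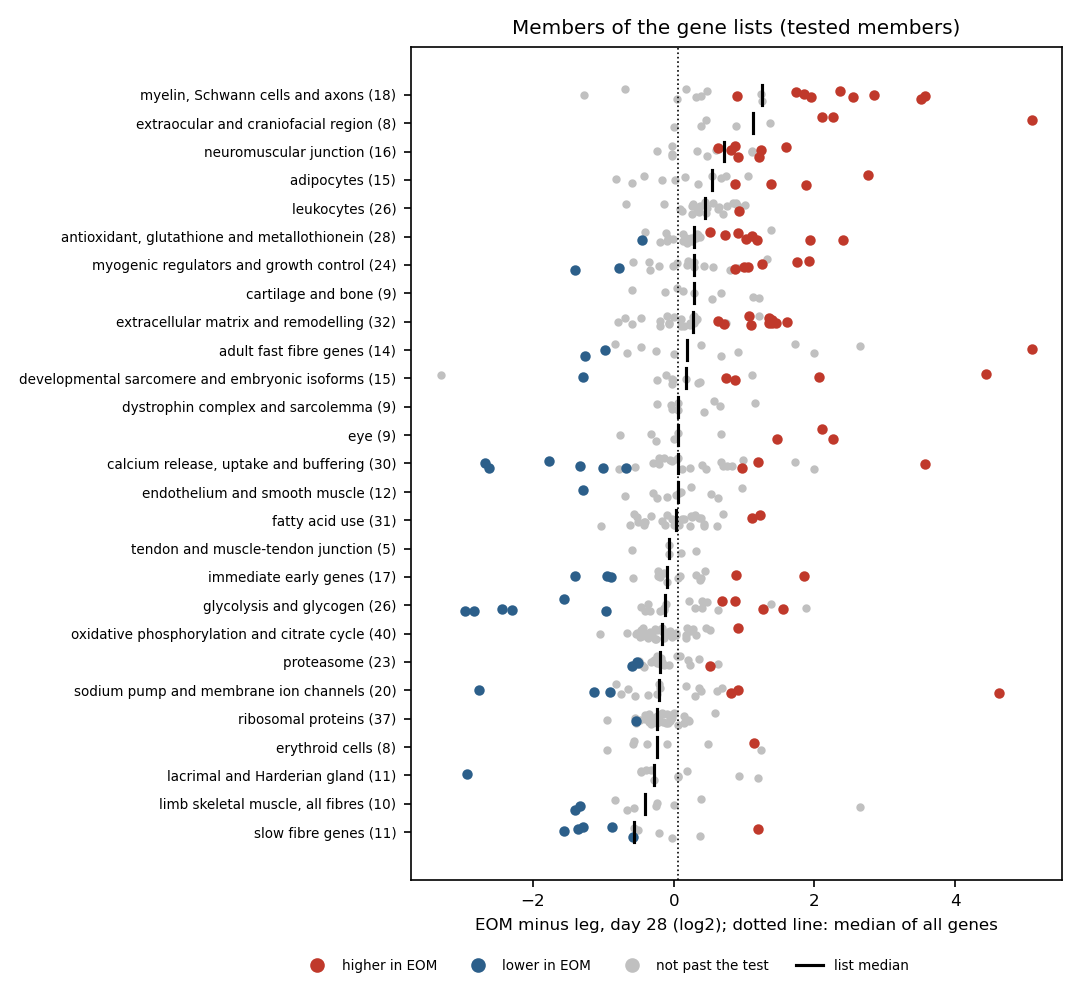
EOM minus leg at day 28 (x axis, log2) for the tested members of each gene list (rows, number tested in brackets), with red points higher in EOM, blue points lower, grey points not past the test, black ticks for list medians, and a dotted line for the median of all genes. The myelin and Schwann list has the highest median, at 1.25, and the slow fibre list the lowest, at -0.57.

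Extracellular matrix genes passed in 1 direction. Of 32 tested 10 were higher in EOM and none was lower, against 7.71% and 4.27% of all genes, with a median of 0.28. At an unadjusted p under 0.05 limma gave 11 higher and 3 lower. Loxl1, an enzyme that crosslinks elastic fibres, was higher by 1.60 ± 0.38, Postn, the matrix protein periostin, by 1.45 ± 0.21, and Fbln5, an elastic fibre protein, by 1.40 ± 0.21. Elastin, Eln, read 16452, 13668 and 9091 on the EOM arrays, against 5932, 4754 and 4002 on the leg arrays, with a difference of 1.39 ± 0.27 (adjusted p = 0.000529), and fibronectin, Fn1, was higher by 1.36 ± 0.20, while its 2 other probe sets did not pass. Of 28 antioxidant, glutathione and metallothionein genes, 8 were higher and 1 was lower (median 0.29), with 5 higher without EOM replicate 2 and 4 without leg replicate 2. Mt3, a metallothionein known from brain, read 2269, 3034 and 2105 on the EOM arrays, against 859.7, 282.6 and 399.4 on the leg arrays, with a difference of 2.41 ± 0.43 (adjusted p = 0.000207), and the glutathione enzymes Gpx3, Gsta4 and Gstm2 were higher by 1.18 ± 0.27, 1.11 ± 0.22 and 1.02 ± 0.25, while a second probe set of each, at 0.94 ± 0.34, 0.64 ± 0.46 and 0.81 ± 0.29, did not pass. Single arrays decided the call for Gpx3 (without leg replicate 2) and Gstm2 (without leg replicate 2).

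Of 24 myogenic regulators and growth genes, 6 were higher and 2 were lower, against 7.71% and 4.27% of all genes. As few as 3 were higher without EOM replicate 2 or leg replicate 2. Myog, myogenin, which drives muscle differentiation, read 1178, 1533 and 1444 on the EOM arrays, against 4198, 3741 and 3120.3 on the leg arrays, and was lower, at -1.41 ± 0.31 (adjusted p = 0.00227). The inhibitors of such factors Id3 and Id1 were higher by 1.25 ± 0.28 and 1.06 ± 0.35, but their second probe sets, at 0.62 ± 0.32 (adjusted p = 0.239) and 0.30 ± 0.23 (adjusted p = 0.474), did not pass. Fst, follistatin, an antagonist of myostatin, was higher by 1.76 ± 0.37, and Cdkn1a, a cell cycle inhibitor, by 1.92 ± 0.58, with a second Cdkn1a probe set at 1.12 ± 0.60 that did not pass (adjusted p = 0.259). Of 17 immediate early genes, 2 were higher and 3 were lower, or as few as 1 lower without EOM replicate 3 or leg replicate 3. Klf4 was higher by 1.85 ± 0.27 and Nr4a1, an orphan nuclear receptor, was lower, at -1.40 ± 0.31, while a second Nr4a1 probe set, at -0.60 ± 0.28, did not pass (adjusted p = 0.176). Of 37 ribosomal protein genes only Rpl18 passed, at -0.53 ± 0.14. Of 23 proteasome genes, 3 were lower, Psmc1, Psma6 and Psmb5, and 1 was higher, the activator subunit Psme1, each by less than 1 log2 unit. Without any single array at most 1 proteasome gene was lower, and under scaling to a common median 1 was lower and none higher. Dropping 1 array removed the call for Id1 (without EOM replicate 1, 2 or 3 or leg replicate 1, 2 or 3), Cdkn1a (without EOM replicate 1 or 2 or leg replicate 2 or 3), Rpl18 (without EOM replicate 1 or 2), Psmc1 (without EOM replicate 1, 2 or 3 or leg replicate 1, 2 or 3), Psma6 (without EOM replicate 1 or 3 or leg replicate 1, 2 or 3), Psmb5 (without EOM replicate 1, 2 or 3 or leg replicate 1 or 2) and Psme1 (without EOM replicate 1 or 2 or leg replicate 2 or 3).

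In the dystrophin complex list no gene of 9 passed. At an unadjusted p under 0.05 limma gave 3 higher and 0 lower, with Lama2, the muscle laminin chain, at 1.16 ± 0.44 (adjusted p = 0.0879, with 1 leg array under the floor) and Cav1, a caveolin of membrane pits, at 0.66 ± 0.34. In the cartilage and bone list of 9 and the tendon list of 5 none passed, and limma gave 0 at an unadjusted p under 0.05 in each.

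Markers of other tissues were checked in the same way. Of 15 adipocyte markers 4 were higher and none was lower, against 7.71% and 4.27% of all genes. Scd, a fatty acid desaturase, was higher by 2.76 ± 0.51 (adjusted p = 0.000327) and Scd2 by 1.89 ± 0.29. Of the 4 other Scd2 probe sets 3 were also higher, by 1.60 to 3.11. The remaining one, at -0.15 ± 0.27, did not pass. Slc2a4 was higher by 0.87 ± 0.20, but its second probe set, at 0.56 ± 0.29, did not pass. Ucp1 was higher by at least 1.38 (standard error 0.47, adjusted p = 0.04998), with 1 leg array under the floor. The summed adipocyte signal was 56917 to 70041 on the EOM arrays and 44704 to 52204 on the leg arrays. Of 9 eye markers 3 were higher: Cyp1b1, a cytochrome of eye tissues (2.26 ± 0.38), Myoc, myocilin (2.11 ± 0.33), and Sag, the retinal arrestin (1.47 ± 0.42). Of the 3 other Cyp1b1 probe sets 2 were also higher, and 1, at 0.53 ± 0.46, did not pass. Cyp1b1 and Myoc also stand on the list of 8 extraocular and craniofacial genes, of which 3 were higher with Myh13. Of 26 leukocyte markers 1 was higher, the adhesion receptor Cd44 (0.92 ± 0.28), and of 8 erythroid markers 1, the heme enzyme Alas2 (1.14 ± 0.31). Of 12 markers of endothelium and smooth muscle 1 was lower, Acta2, by the gene family probe set that is also counted on the developmental list. These counts rest on 1 gene each, beside 7.71% higher and 4.27% lower among all genes. Of 11 gland markers Tspan8 was lower. Of 10 general markers of limb muscle 2 were lower, Myog and Cacna1s, and the 10 include Ckm, which has no usable level. The part of adipocytes, leukocytes and other tissues in the differences described was not tested. In the fits without 1 array the call was lost for Sag (without EOM replicate 1 or leg replicate 1 or 3), Cd44 (without EOM replicate 1 or 2 or leg replicate 1 or 2) and Alas2 (without EOM replicate 1 or 2 or leg replicate 1 or 3). That of Ucp1 was lost without EOM replicate 1 or 2 or leg replicate 1, 2 or 3.

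**Figure D4:**
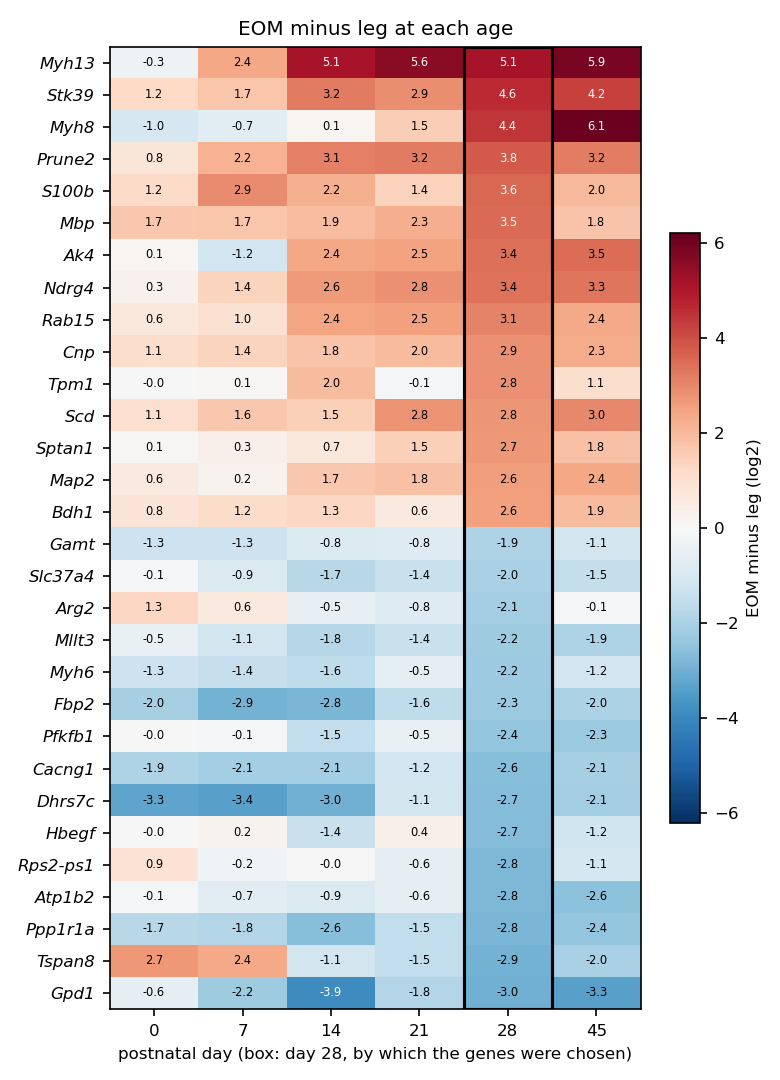
EOM minus leg (colour and printed value, log2) at each postnatal day (columns) for the 30 genes with the largest differences at day 28 (rows), with day 28 boxed because the genes were chosen there. Myh13 and Ndrg4 keep their sign from day 7 on, while Myh8 turns from -1.0 at day 0 to 6.1 at day 45, and Tspan8 turns from 2.7 to -2.0.

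The difference at day 28 was also set against those at the neighbouring ages. At day 21, 3.68% of genes were higher in EOM and 0.514% were lower, and at day 45 the shares were 6.92% and 3.47%. Of the 510 probe sets higher at day 28, 240 were also higher at day 45, which is 47.1% of the day 28 list and 52.2% of the day 45 list. Of the 279 lower ones, 125 were also lower at day 45 (44.8% and 51.0%). With day 21 the shared numbers were 158 higher (31.0% of day 28, 68.1% of day 21) and 28 lower (10.0% and 75.7%). In all, 469 of the 789 probe sets were called the same way at 1 or more other ages, and 38 at all 6 ages, of which 29 were higher and 9 lower. By gene 17 were called at all 6 ages. The 4 lower were Ppp1r1a, Cacng1, Fbp2 and Car3, and the 13 higher included Mbp, Mal and Cyp1b1. Of the probe sets higher at day 28, 16 were lower at day 0.

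The change in the EOM to leg difference between ages was tested directly. Between days 21 and 28, 1 probe set passed (0.0150% of those tested), which was Myh8. On the EOM arrays Myh8 read 6126, 6817 and 6299 at day 21 and 7606, 8975 and 7687 at day 28, while on the leg arrays it read 3659, 2511 and 1147 at day 21 and 291.4, 297.8 and 597.4 at day 28. The EOM level differed by 0.33 and the leg level fell by 2.56 on the log2 scale, so the difference grew by 2.89 ± 0.40 (adjusted p = 0.00041). Between days 28 and 45, 3 probe sets passed (0.0450%), named after their values were seen except Sqle. They were a second probe set of Acta2, smooth muscle actin, a second probe set of Myl9, the smooth muscle myosin light chain, and Sqle, squalene epoxidase of cholesterol synthesis. All 3 were lower in EOM relative to leg at day 28 than at day 45. The Sqle call was lost without replicate 1 of either muscle at day 28, replicate 1 or 2 of EOM at day 45 or replicate 1 of leg at day 45. The 3 calls were also lost when only the 12 arrays of the 2 ages compared were fitted, as was that of Myh8.

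**Figure D5:**
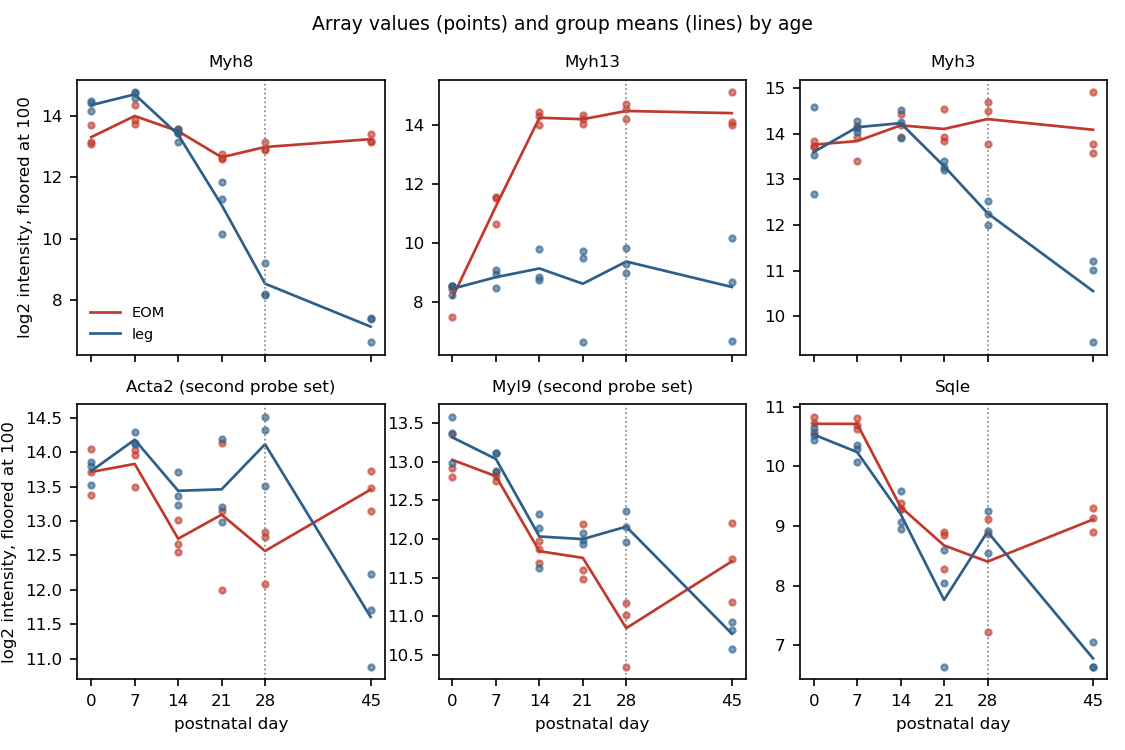
Level on each array (points) and group mean (line) by postnatal day (x axis) for 6 genes or probe sets, on the y axis as log2 intensity floored at 100, with EOM in red, leg in blue and a dotted line at day 28. The EOM mean of Myh13 is 8.16 at day 0 and 14.5 at day 28, the leg mean of Myh8 is 14.3 at day 0 and 8.54 at day 28, and the second Acta2 and Myl9 probe sets and Sqle change order between days 28 and 45.

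Some of the brightest muscle probe sets read near 0 or split widely between replicates. Ckm, the muscle creatine kinase, is listed at 0.2 or less on all 6 arrays, so no level is given for it. Actc1, cardiac actin, read 12690.2, 6.8 and 12349 on the EOM arrays, against 23549.6, 26348 and 24904 on the leg arrays, and did not pass. Atp2a1, the fast calcium pump, read 12444, 46.2 and 11602 on the EOM arrays, against 112.2, 181.6 and 11063 on the leg arrays. In EOM 8 probe sets did not exceed the floor on replicate 2 while another EOM array was above 1000, and 2 did so on replicate 3. In leg the same held for 5 on replicate 1 and 1 each on replicates 2 and 3. These genes are not described further, though Ckm and Actc1 are counted among the tested members of their lists.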

How the data were processed

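Total RNA of EOM and leg muscle was hybridised to RG-U34A arrays, per the labels. The deposited values are linear intensity readings, 1 for each probe set on each array; the 6 day 28 arrays have trimmed means of 1501 to 1502, so a common scaling preceded deposit. What software summarised the probes is not stated in the labels.

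Intensity values were floored at 100 and turned to log2. After removal of 59 control probe sets, testing required readings above the 40th percentile (320.4) on at least 3 of the 36 arrays, which left 6672 of 8799 probe sets. The 2016 platform annotation gave 1 symbol to 7006, several to 308 and none to 1426 (unnamed here), and 6985 matched the RefSeq gene table by gene identifier. In limma 3.58.1 (R 4.3.3), a model with a mean for each of 12 groups was fitted to the 36 arrays with a trended prior, Benjamini-Hochberg adjustment and a threshold of 0.05. The fit was tested on simulated data.

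Each gene is represented by its brightest probe set. Of the genes that passed with non-overlapping arrays, the 15 furthest apart in each direction are named, with up to 6 for each difference between ages, up to 5 members of each list (or 2 where none passed), and a fixed set of myosin and acetylcholine receptor genes. The members and lists were chosen with earlier results of these data known. Alternatives changed the floor, filter, scaling, prior, samples and replicate block. Figures used matplotlib 3.10.9 in python 3.11.15.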

Additional observations from a re-analysis of the deposited data

Results flagged for a closer look

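The EOM minus leg difference of 4 probe sets changed between ages, by the test of the change itself. For Myh8, the neonatal myosin, the difference was larger at day 28 than at day 21 by 2.89 ± 0.40 (log2, adjusted p = 0.00041 in limma). The difference was 1.55 at day 21 and 4.44 at day 28, and leg arrays read lower at day 28 than at day 21.

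For the second probe set of Acta2, the smooth muscle actin, the difference at day 28 minus that at day 45 was -3.40 ± 0.53 (adjusted p = 0.00143). It was -1.55 at day 28 and 1.85 at day 45, while the brightest Acta2 probe set gave -1.29 and -0.29. For the second probe set of Myl9, a smooth muscle myosin light chain, the change was -2.25 ± 0.33 (adjusted p = 0.00116), with -1.31 at day 28 and 0.94 at day 45. For Sqle, an enzyme of cholesterol synthesis, it was -2.83 ± 0.53 (adjusted p = 0.0207), with -0.50 at day 28, which did not pass, and 2.33 at day 45, where 2 of the 3 leg arrays lay under the floor.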

How the results depend on the processing

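The 18 alternatives for day 28 comprised 12 settings of the fit and 6 fits without 1 array. The count of 789 probe sets at day 28 was 432 when only the 6 arrays compared were fitted, and 515 to 694 without 1 array, with the lowest count without EOM replicate 2; the other settings gave 560 to 900. The test of day 28 against day 21 called 0 probe sets when probe sets with any array in the top 5% were left out (323 at an unadjusted p under 0.05), and 0 when only the arrays compared were fitted (347 at an unadjusted p under 0.05), against 1 to 14 without 1 array, with 14 without EOM day 21 replicate 3. The test of day 28 against day 45 called 1 without the top 5% probe sets, 5 with arrays scaled to the same median, 0 with only the arrays compared (297 at an unadjusted p under 0.05), 8 with the replicate block, and 2 to 15 without 1 array, with 15 without EOM day 45 replicate 3. Leaving out the top 5% removed the called probe sets of Myh8, Acta2 and Myl9 themselves, so that setting did not test their calls. Sqle was tested there and kept its call. With only the arrays compared, Myh8 had an adjusted p of 0.335 for its change since day 21, and the changes between days 28 and 45 had 0.0858 for Acta2, 0.204 for Myl9 and 0.696 for Sqle. Sqle also missed the threshold with the floor at 200 (0.0851) and after quantile normalization (0.0525). The replicate block gave 900 calls at day 28 and 1 for day 28 against day 21. Arrays with the same number deviated from their group means with correlations of 0.10, -0.01 and 0.26. Arrays of EOM and leg with different numbers gave -0.19 to 0.07. The share of readings at or under the floor rose with the replicate number in both muscles. It was 18.5%, 21.0% and 23.2% in EOM, and 17.4%, 21.0% and 23.3% in leg. The main fit did not take the numbers to pair the samples, and whether same-numbered arrays shared a batch was not tested. Of the 91 named genes past the test, 59 kept their call under every alternative that tested them, as did 29 of the 30 genes with the largest differences, the exception being Tpm1. No named gene that passed changed sign. The cause of these changes was not tested.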

Other observations

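Some probe sets outside the rule for named genes also stood apart, and they are named here after their values were seen. For S100a1, a calcium-binding protein of muscle and nerve, a second probe set read 1362, 2421 and 2917 on the EOM arrays, against 138.7, 118.3 and 194.5 on the leg arrays, with a difference of 3.85 ± 0.44 (adjusted p = 3.11e-07 in limma). All 4 S100a1 probe sets were higher in EOM, by 0.97 to 3.85. For H19, an imprinted noncoding RNA, a dimmer probe set read 13035, 11095 and 16271 on the EOM arrays, against 1038, 884.9 and 815.9 on the leg arrays, with a difference of 3.87 ± 0.75 (adjusted p = 0.000577). The brightest H19 probe set overlapped between the groups and did not pass, at 0.17 ± 0.64 (adjusted p = 0.917).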
